A study of Rattus norvegicus with 3 samples.

Results

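The genes described here encode the proteins of the mitochondrial ribosome. They were taken as all genes of the array whose platform symbol starts with Mrpl, for the large subunit, or Mrps, for the small subunit, followed by a digit. This gave 71 genes on 85 probes, of 15930 genes on 20932 probes that carry a symbol. The large subunit had 45 genes on 53 probes and the small subunit 26 genes on 32 probes. Capital letters were ignored, because the platform spells 3 of the genes, Mrpl9, Mrpl11 and Mrpl24, in lower case. Of the 71 genes, 58 had 1 probe, 12 had 2 probes and 1 had 3 probes.

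Mitochondria carry a ribosome of their own, which translates the few messages of mitochondrial DNA into core subunits of the respiratory chain and the ATP synthase. All of its proteins are encoded in the nucleus, made in the cytosol and imported. Some descend from proteins of the bacterial ribosome, and others were added during the evolution of mitochondria and have no bacterial counterpart. In macrophages, mitochondrial respiration is among the functions known to change with activation.

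RNA came from NR8383, an established line of rat alveolar macrophages. The cells were cultured for 24 h with CNT-1 or with CNT-2, single-wall carbon nanotubes described as free of impurities, at 0.1 mg/mL. The nanotubes were given in 1 mg/mL bovine serum albumin. The control was cultured for 24 h too and is labelled both as untreated and as a solvent control with albumin, so whether it received albumin is not settled. Cy3-labelled RNA was measured on Agilent arrays of 1 colour. The labels do not say in what respect CNT-1 differs from CNT-2.

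The deposited table held 3 columns, 1 for each group, which leaves every difference without a replicate check, and none was tested. Values were log2 differences from a baseline that is not stated. The base of the log is not stated either, and the values were read as log2. A value of a gene is the mean over its probes, and its error is given as the SD over probes where it had 2 or more. That SD is technical and does not measure the spread between cultures. Its median over the 3907 genes with 2 or more probes was 0.08 for CNT-1 minus control and 0.19 for CNT-2 minus control. The words higher and lower below describe these 3 columns only. In a bulk sample, fewer cells of a type and less RNA per cell cannot be told apart.

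Centring on a baseline removed the expression level of each probe, so levels of different genes cannot be compared. The cell type could not be checked against its markers by level for the same reason. In CNT-2 minus control the 9 measured of 10 alveolar macrophage markers had a median of -0.15. Lowest were Mrc1 at -2.24 ± 0.13 and Csf1r at -1.25 ± 0.60 (probe SD, 2 probes each). Highest were Spi1 at 0.46 and Cd68 at 0.63. Markers of other cell types, 10 genes from lung and blood, had a median of -0.29 and ran from -1.37 for Cd79a and -0.71 for Cd3e to 1.5 ± 1.81 (probe SD, 2 probes) for Myh11 and 2.56 for Dcn. In CNT-1 minus control none of the macrophage markers and 1 of the others, Epcam at 1.61, was 1 log2 unit away. Of all genes 1.16% were at least 1 log2 unit higher and 2.15% at least 1 log2 unit lower in that difference. The 10 spike-in probes, which report RNA added to every sample, lay 0.23 ± 0.10 (SD over probes) above control in CNT-2, and the 18 probes named DCP ranged from -0.54 to 0.33. The part of these shifts in the results below was not tested.

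Probe quality could not be judged, because the deposited values hold no level, but probes could be grouped by their control value. All 85 probes of the mitoribosomal genes lay within 0.1 of 0 in the control column, from -0.099 to 0.089, against 72.6% of all gene probes. None was background-like, that is within 0.02 of the negative-control probe in that column, against 14.5% of all gene probes. That probe stood at 0.157, so this follows from the range just given and says nothing of signal. Because all 85 probes lay near 0, the mitoribosomal genes are set beside all 15930 genes. They are also set beside the 11734 genes that have probes near 0 in the control. Shares of these genes are for the values as deposited and were not computed under other scalings of the columns. The columns differed in spread, with an SD over all 41103 probes of 0.16 in the control, 0.40 in CNT-1 and 0.85 in CNT-2. Quantile normalization gives the 3 columns 1 distribution, so it narrows CNT-2 and widens the control. Counts past a threshold and signs of small differences after it can follow from that step.

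Promoter sequences are shown for genes at or near both ends of the CNT-2 range. A further one is from a pair of genes whose annotated starts lie close together on opposite strands. RefSeq's promoter table for assembly GRCr8 matched 57 of the 71 symbols. Each printed sequence is the 250 bases before the annotated gene start, 5′ to 3′ on the strand of the gene. The lowest gene of either subunit, Mrpl16 and Mrps34, had no entry. Among genes with a single entry, Mrpl32 was lowest and Mrpl24 highest of the large subunit, and Mrps33 lowest and Mrps10 highest of the small subunit. Mrpl21, at -0.89, lay below Mrpl32 but was not among the genes with a single entry. Mrpl46 was added after its values were seen, because the upstream end of its window reaches into the start of Mrps11. The windows lie at chr17:55260401-55260650 on the + strand, chr2:175680825-175681074 on the + strand, chr4:69566939-69567188 on the - strand, chr9:21122454-21122703 on the - strand and chr1:142117031-142117280 on the - strand. Capitals in Mrpl32 mark, in order, the YY1 letters and a CCAAT box, both on the reverse strand, and an NRF1 motif. Capitals in Mrpl46 mark the first 17 bases of Mrps11, which is read in the opposite direction.
Mrpl32: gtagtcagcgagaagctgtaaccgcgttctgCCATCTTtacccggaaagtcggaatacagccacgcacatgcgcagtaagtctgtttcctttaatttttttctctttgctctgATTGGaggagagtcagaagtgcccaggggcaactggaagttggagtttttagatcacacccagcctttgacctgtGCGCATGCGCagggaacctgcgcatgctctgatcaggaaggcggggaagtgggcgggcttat
Mrpl24: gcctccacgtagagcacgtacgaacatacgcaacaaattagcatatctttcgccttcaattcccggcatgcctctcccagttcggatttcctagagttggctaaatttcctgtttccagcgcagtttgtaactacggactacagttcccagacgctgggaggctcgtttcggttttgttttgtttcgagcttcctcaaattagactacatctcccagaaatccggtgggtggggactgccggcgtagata
Mrps33: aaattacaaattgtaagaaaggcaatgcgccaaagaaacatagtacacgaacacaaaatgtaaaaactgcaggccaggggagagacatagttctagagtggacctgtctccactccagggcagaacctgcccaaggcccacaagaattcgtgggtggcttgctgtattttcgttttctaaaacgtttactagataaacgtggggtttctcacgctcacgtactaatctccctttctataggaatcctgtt
Mrps10: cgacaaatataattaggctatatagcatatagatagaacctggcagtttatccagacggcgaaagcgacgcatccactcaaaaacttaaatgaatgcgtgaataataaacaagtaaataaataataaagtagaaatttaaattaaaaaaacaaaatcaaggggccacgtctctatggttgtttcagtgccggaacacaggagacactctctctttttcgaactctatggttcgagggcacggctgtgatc
Mrpl46: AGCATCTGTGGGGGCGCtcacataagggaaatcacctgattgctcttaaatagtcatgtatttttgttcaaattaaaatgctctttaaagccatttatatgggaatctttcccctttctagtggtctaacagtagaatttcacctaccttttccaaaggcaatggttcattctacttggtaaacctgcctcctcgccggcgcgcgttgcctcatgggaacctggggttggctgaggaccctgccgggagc

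The first question was whether CNT-1 was accompanied by a difference in these genes. The whole set stayed within 0.20 log2 units of control in this column. Its median was 0.012, with an SD over genes of 0.08, and gene values ran from -0.13 to 0.20. No gene of the 71 was 0.5 log2 units away from control, a distance that 4.97% of all genes passed on the higher and 8.19% on the lower side (4.77% and 5.37% of genes with probes near 0). At 1 log2 unit the shares were 1.16% and 2.15% of all genes and 1.09% and 1.01% of genes with probes near 0, again with none of the 71. The set had 32 genes below 0, 37 above 0 and 2 at 0, while 57.8% of all genes and 50.1% of those with probes near 0 in the control lay below 0. The medians were -0.04 for all genes and -0.001 for genes with probes near 0. After quantile normalization the mitoribosomal median was 0.13, with 5 genes below 0, and that of all genes 0.08.

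The subunits were then compared in CNT-1. The large subunit had a median of 0.03, with 19 of 45 genes below 0, and the small subunit a median of 0.0015, with 13 of 26 below 0. The medians differed by 0.03. The sign of the small-subunit median turned when each probe was counted on its own, to -0.011.

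The ends of the CNT-1 range were small in size. Mrps10, a small-subunit head protein with a bacterial counterpart, was highest at 0.20. It stood at -0.071 in the control, 0.129 in CNT-1 and 0.512 in CNT-2. Mrps27, an RNA-binding protein found in mitochondrial but not bacterial ribosomes, was at 0.19 ± 0.01 (probe SD, 2 probes). Its probes both lay at about 0 in the control, at 0.189 and 0.199 in CNT-1 and at -0.269 and -0.293 in CNT-2. This gene was thus above control in 1 column and below it in the other, and both of its probes gave that order. The mitochondria-specific large-subunit proteins Mrpl52, Mrpl51 and Mrpl55 followed at 0.18, 0.18 and 0.16 ± 0.02 (probe SD, 2 probes).

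At the lower end of CNT-1 were Mrps33 at -0.13 ± 0.09 (probe SD, 2 probes), Mrps24 at -0.10, Mrpl2 at -0.10, Mrps34 at -0.095 and Mrpl23 at -0.093. Mrps24 is the counterpart of a bacterial head protein, and Mrpl2 of a core protein close to the peptidyl transferase centre. Mrpl23 lies at the exit of the peptide tunnel. Mrps33, Mrpl2 and Mrps34 lay above control after quantile normalization, at 0.24, 0.16 and 0.07. Their control values were -0.0555, -0.026 and -0.007, in a column that this step widens. The sign after it thus does not rest on CNT-1 alone. These 5 differences, like those at the upper end, are smaller in size than the largest SD over probes in the set, 0.30 for Mrpl34. They are larger than the median SD over probes, 0.02 for the 13 members and 0.08 for all genes with 2 or more probes.

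The next question was the same for CNT-2. Here the set lay slightly lower than control and was narrow compared with other genes. Its median was -0.17 with an SD over genes of 0.29, against a median of 0.04 and an SD of 0.88 over all genes. Of the 71 genes 49 were below 0 and 22 above, while 46.4% of all genes and 44.6% of those with probes near 0 lay below 0. Mrpl16 alone was at least 1 log2 unit away from control, on the lower side. No gene was that far away after quantile normalization, which narrows the CNT-2 column. Of all genes 6.58% passed that distance on the lower and 10.1% on the higher side, and of genes with probes near 0 these were 7.23% and 10.9%. At 0.5 log2 units 7 genes were lower and 1 was higher, against 16.1% and 23.4% of all genes and 17.6% and 25.5% of those with probes near 0. Together these are 8 genes, a count that was 31 with 75th percentile centring, 25 with spike-in centring and 1 after quantile normalization. The shares above are for the values as deposited, so these counts cannot be set against them. These scalings moved the median of all genes to -0.27, -0.20 and 0.02.

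The size of the shift depended on how columns were scaled. Centring on the 75th percentile moved the median of all genes from 0.04 to -0.27, and centring on spike-in probes moved it to -0.20. The mitoribosomal median then stood at -0.49 and -0.42. Quantile normalization moved it the other way, to -0.03, with the median of all genes at 0.02. In the values reported 53 of the 71 genes lay below the median of all genes, and after quantile normalization 43 did. Centring subtracts 1 constant from a column, so it leaves the place of a gene relative to that median as it was.

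**Figure D1:**
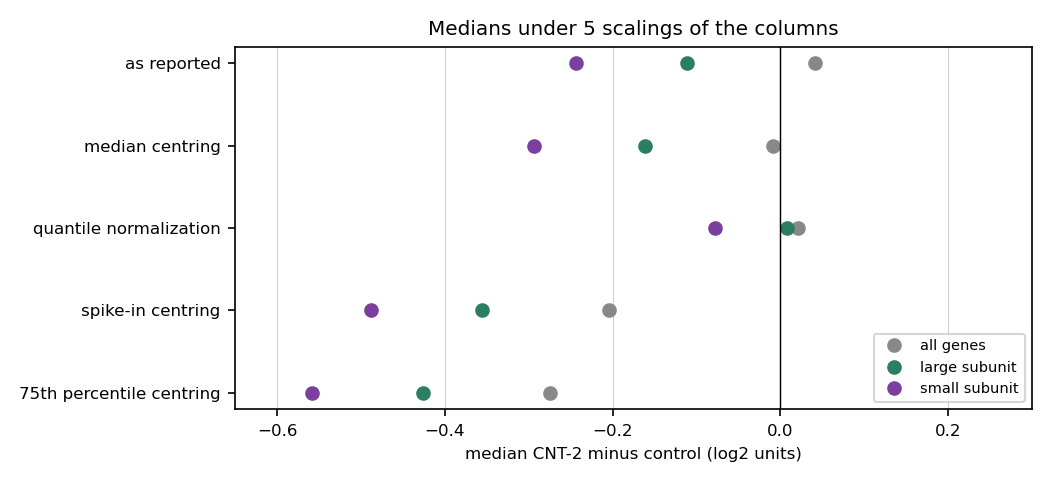
Median CNT-2 minus control in log2 units (x axis) of all genes (grey), large-subunit genes (green) and small-subunit genes (purple) under 5 scalings of the columns (y axis). The small subunit is lowest and all genes highest under each of the 5, while the values run from 0.04, -0.11 and -0.24 for all genes, large and small subunit as reported to -0.27, -0.43 and -0.56 with 75th percentile centring, and the large-subunit median is above 0, at 0.0085, with quantile normalization.

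**Figure D2:**
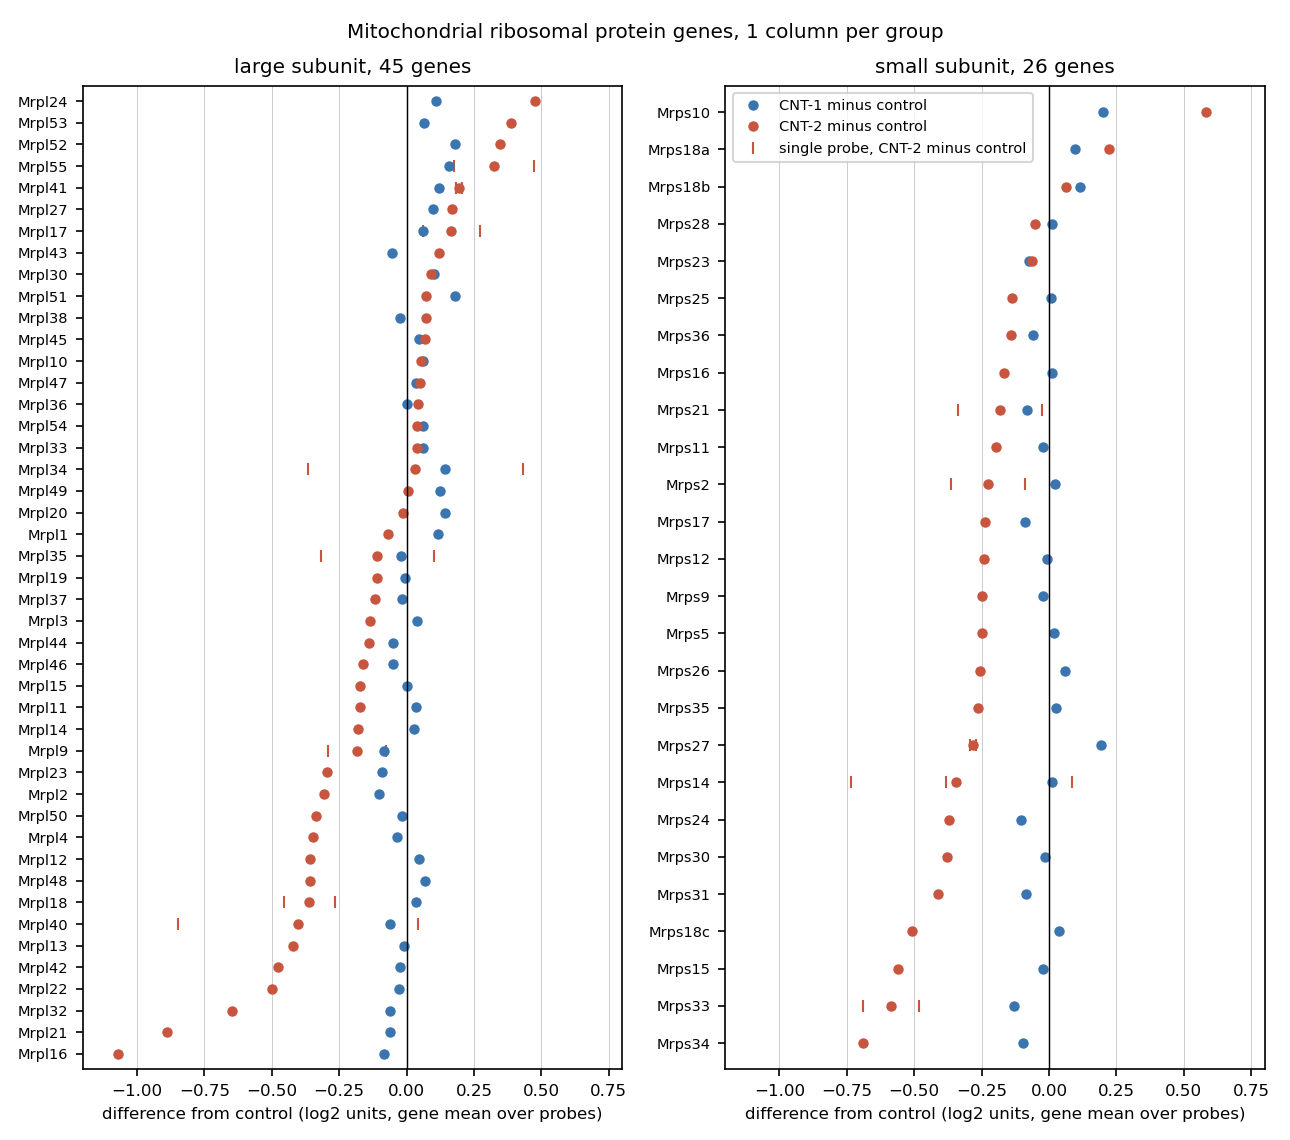
Difference from control in log2 units (x axis) for each mitoribosomal gene (y axis), large subunit left and small subunit right, sorted by CNT-2. Dots are gene means over probes and vertical ticks single probes of genes with 2 or more; CNT-1 dots stay between -0.13 and 0.20, while CNT-2 dots run from -1.07 to 0.58.

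The subunit medians lay further apart in CNT-2. In the large subunit 26 of 45 genes and in the small subunit 23 of 26 lay below 0. The small-subunit median was -0.24 and the large-subunit median -0.11, which turned to 0.0085 after quantile normalization. The medians differed by 0.13 and the means by 0.10. The counts below 0 were 41 of 45 and 25 of 26 with 75th percentile or spike-in centring, and 21 of 45 and 19 of 26 after quantile normalization. Both centrings lowered all genes alike. Below the median of all genes lay 30 of 45 and 23 of 26, as reported and with either centring. After quantile normalization 23 of 45 and 20 of 26 lay below it. The SD over genes was 0.31 in the large and 0.26 in the small subunit. The 2 ranges overlapped widely: 21 of 26 small-subunit genes lay below the large-subunit median, and 14 of 45 large-subunit genes lay below the small-subunit median. The gap was 0.09 after quantile normalization, 0.18 with each probe counted on its own and 0.24 among the 13 genes with 2 or more probes. Centring of columns cannot change it. Symbols do not settle the subunit in every case. In mammalian structures the proteins of Mrps30, at -0.38, and Mrps18a, at 0.22, sit in the large subunit, and Mrps36 is named Kgd4, after an enzyme complex, in the RefSeq table. With the first 2 moved and Mrps36 left out, the gap was 0.14.

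**Figure D3:**
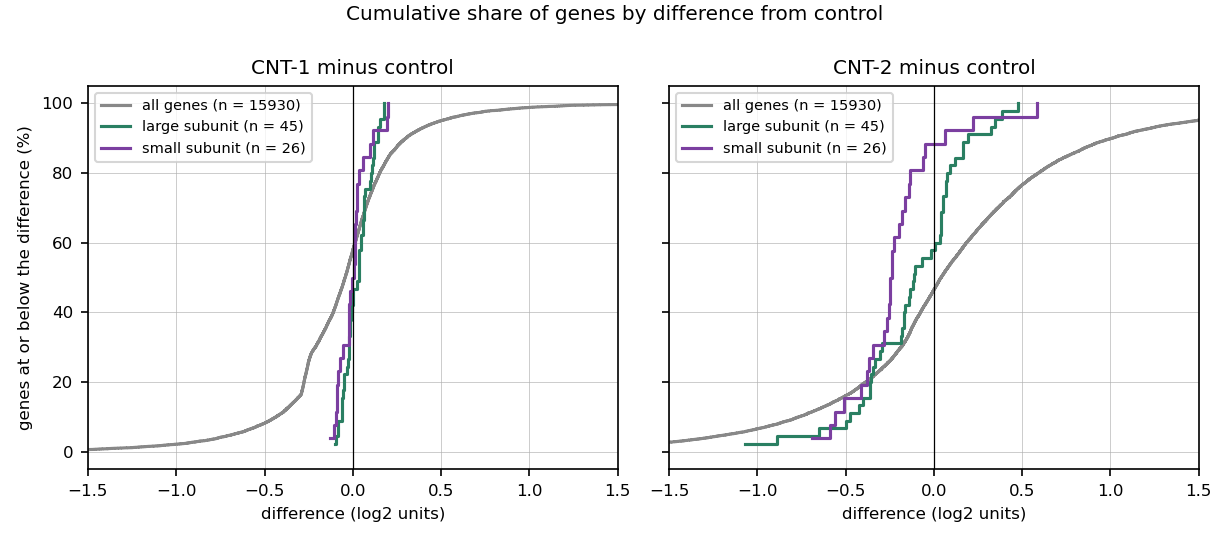
Cumulative share of genes in percent (y axis) by difference from control in log2 units (x axis), for CNT-1 left and CNT-2 right, with all 15930 genes in grey, 45 large-subunit genes in green and 26 small-subunit genes in purple. The x axis stops at 1.5 units on either side; both subunit curves are steeper than that of all genes, and in CNT-2 the small-subunit curve passes 0 at 88.5% against 57.8% for the large subunit, in the values as deposited.

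Descent of the proteins was another way to group them, leaving out Mrps36. Subunits were taken by symbol here. Mrps30 thus counts among the mitochondria-specific and Mrps18a among the bacterial-type proteins of the small subunit. The groups were not recomputed with these genes moved. Of the 28 bacterial-type proteins of the large subunit 19 were below 0 in CNT-2, with a median of -0.15, or 14 with a median of -0.001 after quantile normalization. Of the 17 mitochondria-specific proteins of that subunit 7 were below 0, with a median of 0.04. This median was 0.06 after quantile normalization but -0.012, -0.21 and -0.28 with median, spike-in and 75th percentile centring. In the small subunit 13 of 16 bacterial-type proteins were below 0 with a median of -0.23, and all 9 mitochondria-specific proteins were below 0 with a median of -0.28. After quantile normalization 7 of these 9 were below 0. The mitochondria-specific proteins were thus the higher group in the large subunit and the lower group in the small subunit. In CNT-1 all 4 groups had medians between -0.016 and 0.05, and the lowest, that of the mitochondria-specific small-subunit proteins, lay above 0 with median and spike-in centring and quantile normalization.

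The lowest genes in CNT-2 came from both subunits. Mrpl16, whose bacterial counterpart helps to place the incoming tRNA, was at -1.07, from a single probe. It stood at -0.011 in the control, -0.095 in CNT-1 and -1.082 in CNT-2. Mrpl21, another large-subunit protein of bacterial type, was at -0.89, with 0.000, -0.060 and -0.887 in the same order of columns. Both genes were near control in CNT-1 and low in CNT-2 alone. The next gene of the large subunit was Mrpl32 at -0.65, whose precursor is cut by a mitochondrial protease before the protein joins the ribosome. Its columns read 0.003, -0.059 and -0.646. Mrpl22, a protein that lines the peptide tunnel, was at -0.50.

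In the small subunit the lowest gene was Mrps34, a mitochondria-specific protein, at -0.69. It stood at -0.007 in the control, -0.102 in CNT-1 and -0.696 in CNT-2. Mrps33, also mitochondria-specific, was at -0.59 ± 0.15 (probe SD, 2 probes), and its value was 0.05 after quantile normalization. Its probe designed on an expressed sequence tag was at -0.69 and its RefSeq probe at -0.48. The bacterial-type proteins Mrps15 and Mrps18c were at -0.56 and -0.51. Mrps18c is 1 of 3 relatives of the bacterial S18 protein, and the others, Mrps18a and Mrps18b, were at 0.22 and 0.06. The sign of the last 2 turned when columns were centred on the 75th percentile or on spike-in probes.

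On the higher side Mrps10 was furthest from control at 0.58, from 1 probe, and it was the only gene more than 0.5 log2 units higher. Mrpl24, a tunnel-exit protein of bacterial type, was at 0.48, with 0.010 in the control, 0.120 in CNT-1 and 0.487 in CNT-2. Mrpl53, Mrpl52 and Mrpl55, all mitochondria-specific, were at 0.39, 0.35 and 0.32 ± 0.21 (probe SD, 2 probes). These 5 genes stayed above 0 under every scaling of the columns that was tried. Mrps18a, Mrpl41 and Mrpl27 were at 0.22, 0.19 ± 0.02 (probe SD, 2 probes) and 0.17, and lay below 0 when columns were centred on the 75th percentile or on spike-in probes, though not with median centring or quantile normalization. Mrpl41 has also been linked to cell cycle control, and the bacterial counterpart of Mrpl27 reaches to the peptidyl transferase centre.

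Proteins of known importance lay between these ends. Mrpl12, which forms the stalk that recruits translation factors and also binds the mitochondrial RNA polymerase, was at -0.36, and Mrpl10, which anchors it, was at 0.05. Mrps12, the counterpart of the decoding-centre protein S12, was at -0.24. Mrpl45, which sits at the tunnel exit next to the inner membrane, was at 0.07. Mrpl10 and Mrpl45 lay below 0 with 75th percentile and spike-in centring.

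Probes of 1 gene did not always give the same sign. Of the 13 genes with 2 or more probes, 4 had probes on both sides of 0 in CNT-2. Mrpl40 of the central protuberance had probes at -0.85 and 0.04, the widest spread of the set with an SD of 0.63. Mrpl34 had a RefSeq probe at -0.37 and a probe on an expressed sequence tag at 0.43, and its mean of 0.03 ± 0.56 (probe SD, 2 probes) lay below 0 under all 4 other scalings. Mrps14 had probes at -0.74, -0.38 and 0.09, and Mrpl35 at -0.32 and 0.10, and the means of both lay above 0 after quantile normalization. For these 4 genes the mean hides a disagreement, and no transcript form could be assigned to the probes. By contrast, the probes of Mrps27 (-0.27 and -0.29) and of Mrpl41 (0.18 and 0.21) lay close together.

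The columns of both nanotubes were also set against each other, which does not use the control. In CNT-2 minus CNT-1 the mitoribosomal median was -0.17 and that of all genes 0.15. Of the 71 genes 56 lay below 0, 33 of 45 in the large and 23 of 26 in the small subunit, against 36.7% of all genes and 42.1% of those with probes near 0. In the values as deposited none was 1 log2 unit away. Of all genes 4.65% passed that distance on the lower and 9.31% on the higher side (5.58% and 8.98% of genes with probes near 0). Mrpl16 passed it with median centring, at -1.10. Mrpl16 and Mrpl21 passed it with spike-in centring, at -1.27 and -1.11, and with 75th percentile centring, at -1.31 and -1.15. The share of all genes was not computed under these centrings, which moved their median to 0.04, -0.13 and -0.17. At 0.5 log2 units 6 genes were lower and none higher as deposited. The shares were 12.7% and 24.5% of all genes (15.1% and 24.1% of those with probes near 0). Mrpl16 at -0.99, Mrpl21 at -0.83, Mrps34 and Mrpl32 at -0.59 and Mrps18c at -0.55 were lowest. The highest were Mrps10 at 0.38, Mrpl24 at 0.37, Mrpl53 at 0.33, Mrpl43 at 0.18 and Mrpl55 at 0.17 ± 0.23 (probe SD, 2 probes, at 0.335 and 0.004). The last 2 lay below 0 with 75th percentile or spike-in centring, and Mrpl55 also after quantile normalization.

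Further ribosomal proteins of the mitochondrion carry other symbols and fell outside the rule. All 7 that were looked up had probes. Ptcd3, an RNA-binding protein of the small subunit, was at -0.91 ± 0.11 in CNT-2 minus control (probe SD, 3 probes), lower than any small-subunit gene of the set. Its probes stood at 0.001, 0.000 and -0.079 in the control and at -0.804, -0.916 and -1.100 in CNT-2. Gadd45gip1 of the large subunit was at -0.39 and Dap3, a GTP-binding protein of the small subunit, at -0.28. Aurkaip1 was at -0.28, Ict1, a peptidyl-tRNA hydrolase built into the large subunit, at -0.24, and Chchd1 at -0.15. Mrp63, named Mrpl57 in RefSeq, was at 0.36 ± 0.17 (probe SD, 3 probes). In all 6 of 7 were below 0, with a median of -0.28, or -0.05 after quantile normalization. The members of the small subunit among them, Ptcd3, Dap3, Aurkaip1 and Chchd1, were all below 0, with Chchd1 above 0 after quantile normalization. In CNT-1 these 7 genes ran from -0.14 for Ptcd3, which lay above 0 after quantile normalization, to 0.07 for Chchd1.

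Other genes of mitochondrial translation gave the context. Of 13 measured translation factors 10 were below 0 in CNT-2, against 46.4% of all genes, with a median of -0.15. None was 1 log2 unit away, against 10.1% of all genes on the higher and 6.58% on the lower side. With spike-in centring 1 factor was that far away and with 75th percentile centring 2 were. Mtrfr, which rescues stalled ribosomes, was lowest at -0.91 ± 0.03 (probe SD, 2 probes), followed by the initiator tRNA formylase Mtfmt at -0.71. Taco1, an activator of cytochrome oxidase translation, was highest at 0.28, or below 0 with 75th percentile centring, and the recycling factor Mrrf was at 0.11 ± 0.25 (probe SD, 4 probes), or below 0 with 75th percentile and spike-in centring. Of 21 assembly factors and rRNA-modifying enzymes 15 were below 0, with a median of -0.11 that was 0.011 after quantile normalization. The rRNA methyltransferase Mrm1 was at -0.92 and the GTPase Noa1 at -0.76. Ngrn was at 0.47 ± 0.20 (probe SD, 2 probes). Nsun4, a methyltransferase of the small-subunit rRNA, was the 1 gene of these 21 at least 1 log2 unit higher, against 10.1% of all genes. It was at 1.54, or 0.86 after quantile normalization. With spike-in or 75th percentile centring 2 genes of the list were at least 1 log2 unit lower. The shares of all genes were not computed under these centrings.

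The mitochondrial aminoacyl-tRNA synthetases, which charge the tRNAs used by this ribosome, lay lower than the ribosomal proteins. Of 14 measured genes 13 were below 0 in CNT-2, with a median of -0.50, and all 14 lay below the median of all genes. Cars2 was at -1.68 and Lars2 at -0.88, while Nars2 was at -0.13 and Rars2 at 0.006, or below 0 under all 4 other scalings. In CNT-1 their median was -0.08, or 0.05 after quantile normalization, with 11 of 14 below 0. Of 8 genes of mitochondrial DNA maintenance and transcription 7 were below 0 in CNT-2, with a median of -0.32. The transcription and packaging factor Tfam was at -0.60 and the DNA polymerase subunit Polg at -0.50 ± 0.07 (probe SD, 2 probes). The RNA polymerase Polrmt was at -0.09, or above 0 after quantile normalization, and the accessory subunit Polg2 at 0.82.

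Regulators and chaperones were mixed. Among 9 nuclear regulators of mitochondrial genes the median in CNT-2 was 0.06, or -0.18 and -0.25 with spike-in and 75th percentile centring. Myc, a growth-promoting transcription factor, was at -1.46, having stood at -0.53 in CNT-1. The coactivator Ppargc1a was at -0.34, or above 0 after quantile normalization. The nuclear receptor Esrra was at 0.56 and Gabpb1, a partner of the ETS factor Gabpa, at 0.22 ± 0.18 (probe SD, 2 probes), the latter below 0 with spike-in and 75th percentile centring. A list of 9 measured genes held mitochondrial chaperones and proteases together with Atf5, which is neither. Of these 9 genes 3, with Atf5 among them, were at least 1 log2 unit higher, against 10.1% of all genes. The count was 2 with median or spike-in centring, 1 with 75th percentile centring and 0 after quantile normalization. The share of all genes was not computed under these scalings. The 3 genes were Atf5, a transcription factor of the mitochondrial stress response, at 1.32, the chaperone Hspa9 at 1.25 and the protease Lonp1 at 1.04. The chaperonins Hspd1 and Hspe1 were at -0.58 ± 0.15 (probe SD, 4 probes) and -0.36, the latter above 0 after quantile normalization. Cytosolic ribosomal proteins, which share no subunit with the mitochondrial ribosome, had a median of -0.028 over 71 genes, with 41 below 0. With spike-in centring the median was -0.27 with 70 below 0, with 75th percentile centring -0.34 with 71 below 0, and after quantile normalization 0.06 with 17 below 0. Below the median of all genes lay 52 of the 71 as reported and with either centring, and 25 after quantile normalization. Their lowest values were -2.46 for Rps26 and -0.98 for Rpl34. Their highest were 0.28 ± 0.11 (probe SD, 2 probes) for Rpl10 and 0.21 for Rplp1, both below 0 with 75th percentile centring. Cytosolic ribosomal protein genes have many near-identical pseudogene copies, so their probes may not be specific.

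**Figure D4:**
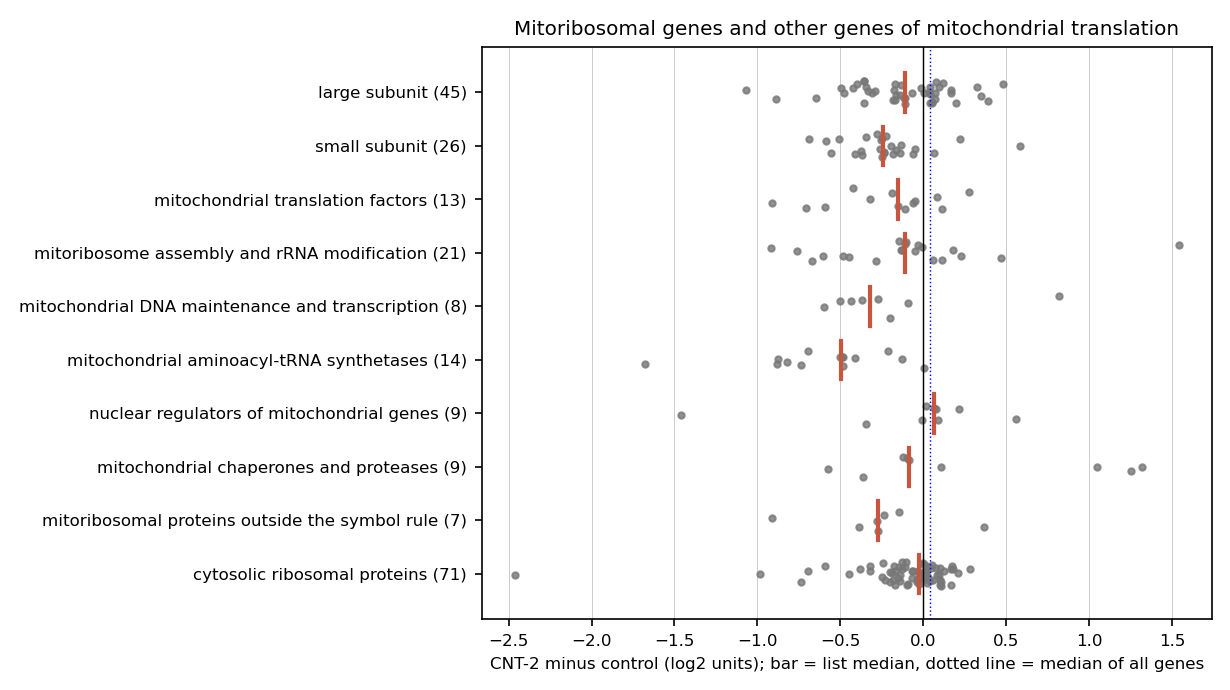
CNT-2 minus control in log2 units (x axis) for each gene (grey dots) of both mitoribosomal subunits and of related lists (y axis, number of genes in brackets), with list medians as red bars and the median of all genes, 0.04, as a dotted line; vertical scatter of dots within a list has no meaning. The aminoacyl-tRNA synthetases have the lowest median, -0.50, and the mitoribosomal subunits lie at -0.11 and -0.24, values that quantile normalization moved to 0.0085 and -0.08.

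Promoters were then searched for letters of motifs known from genes of mitochondrial proteins, on both strands of the 300-base window that ends 50 bases after the gene start. The ETS motif CCGGAAG was found in 19 of 57 member windows (33.3%), against 13.6% of the 13163 measured genes with a window. The NRF1 motif, whose 10 letters are the last capitals in the Mrpl32 promoter, was in 4 windows (7.02%), against 1.38%. The YY1 letters AAGATGG were in 14 windows (24.6%), against 7.86%, and a longer YY1 form of 10 letters that contains them in 7 (12.3%), against 1.91%. The E-box CACGTG was in 7 windows (12.3%), against 8.43%, and the CCAAT box CCAAT in 25 (43.9%), against 38.9%. Apart from the YY1 forms, no motif contains another. The ETS letters stood in 11 of 37 large-subunit and 8 of 20 small-subunit windows. Genes with the ETS letters had a median of -0.014 in CNT-2 minus control and those without them -0.18. For NRF1 these medians were -0.04 and -0.17, for the YY1 letters -0.14 and -0.17 and for their longer form -0.16 and -0.17. For the E-box they were 0.04 and -0.18, and for the CCAAT box, in the other order, -0.24 and -0.10. These medians are for the values as deposited and were not recomputed under other scalings. That of the E-box rests on 7 genes and that of NRF1 on 4. No test was made of these differences.

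Of the promoters printed above, Mrpl32 held the YY1 letters at position -219, the CCAAT letters at -137 and the NRF1 letters at -62, counted from the gene start at 0. In Mrps10 the ETS letters began at the gene start and the YY1 letters 30 bases after it. In Mrpl24 an E-box began 3 bases and in Mrpl46 the YY1 letters began 24 bases after the start. These 4 matches lie just past the part that is printed. In Mrps33 none of the letter strings was found in the window. The matches are a description of the letters and not of binding.

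Mitoribosomal genes often stood head to head with another gene. By RefSeq coordinates, 16 of 57 members (28.1%) had a protein-coding neighbour on the opposite strand whose start lay at most 1000 bases upstream of their own, against 8.42% of 13114 measured protein-coding genes. Mrpl46 and Mrps11, a large- and a small-subunit gene, are such a pair with 234 bases between their starts, and were at -0.16 and -0.20 in CNT-2. Other neighbours belonged to other functions and had values of their own. Mrpl27 was at 0.17, with the change of sign given above, and the DNA repair gene Eme1, whose start lies 44 bases away, at -1.23. Mrpl51 was at 0.07, or below 0 with 75th percentile or spike-in centring, and the condensin subunit Ncapd2, 50 bases away, at -0.88 in the mean of 2 probes. Mrpl2 was at -0.31, or above 0 after quantile normalization, and the kinesin light chain Klc4, 528 bases away, at 1.42. Mrpl32 was at -0.65 and the proteasome subunit Psma2, 210 bases away, at -0.08, or above 0 after quantile normalization. Mrps18c and the helicase Helq, 72 bases away, were both low, at -0.51 and -0.70, the latter in the mean of 3 probes. Of the 15 neighbour values that were measured, 11 were below 0, 1 was at least 1 log2 unit higher and 1 at least 1 log2 unit lower, with a median of -0.20. Of all genes 46.4% were below 0, 10.1% at least 1 log2 unit higher and 6.58% at least 1 log2 unit lower. After quantile normalization none of the 15 was 1 log2 unit away. Mrpl46 and Mrps11 count among these as each other's neighbour. A gene and its head-to-head neighbour thus did not always lie on the same side of control.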

How the data were processed

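The table deposited by the authors held values, read here as log2 differences, for 41103 probes in 3 columns, 1 per group. The submitters' processing notes name Agilent Feature Extraction 10.7.3.1. Normalization, baseline and log base are not stated in them. The design text speaks of an n of 4 with no unit, so a column may be 1 array or a mean of several. Probes were named by the supplied platform annotation. Differences between columns were taken per probe and averaged over the probes of a gene with Python 3.11.15 and pandas 2.3.3. The scripts were tested on simulated columns. Alternatives were other scalings of the columns, other uses of probes and names, and another threshold. The number of arrays limits the precision.

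Genes named were the 8 highest and 8 lowest members in CNT-2 minus control, the 5 highest and 5 lowest in the other differences, members past 1 log2 unit, genes of other lists past 1 log2 unit, the 2 highest and 2 lowest of a list, and members whose probes lay over 0.25 on both sides of 0. Others were chosen after their values were seen: Mrpl10, Mrpl12, Mrpl45, Mrps12, Mrps18b, Mrps30, Mrps36, Mrpl35, Mrpl40, Mrps14, Epcam, and the genes of head-to-head pairs. The YY1 letters were shortened after the longer form had been counted. The members and lists were chosen with earlier results of these data known. No test was made, as a group had 1 column. Promoters came from RefSeq, assembly GRCr8. Genes of mitochondrial DNA itself were not analysed here.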

Additional observations from a re-analysis of the deposited data

How the results depend on the processing

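No paired analysis was possible because each group had 1 column and no result came from a test. In all, 13 summary results were recomputed under up to 17 alternatives, 3 of them chosen after seeing the data: symbols with a capital M alone, RefSeq probes alone, and the proteins outside the symbol rule added. A median was taken as moved when it shifted by more than the median SD over probes, and a count when it changed by over 1.5 times. That limit is the spread of single genes and is wide for a median of many genes: the median of all mitoribosomal genes in CNT-2 minus control at -0.031 after quantile normalization lies within it. Filters that removed no probe of the set, and centring in the gap between subunits, could not change a value. The large-subunit median in CNT-2 minus control turned to 0.0085 with quantile normalization, and the small-subunit median in CNT-1 minus control to -0.011 with each probe on its own.

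With 75th percentile centring the CNT-2 medians were -0.487 for all mitoribosomal genes, -0.426 for the large and -0.5585 for the small subunit, and CNT-2 minus CNT-1 was -0.495. With spike-in centring they were -0.417, -0.356, -0.4885 and -0.4545. Quantile normalization moved the CNT-1 medians to 0.1313, 0.194 and 0.1207. The count of genes at least 1 log2 unit from control in CNT-2 was 3 when centred on the 75th percentile, 2 when centred on spike-in probes, 0 with quantile normalization, 0 among genes with 2 or more probes, 2 with values read as natural logs and 8 at a threshold of 0.5. In CNT-1 it was 0 under every alternative run. Genes below 0 in CNT-1 numbered 14 with median centring, 18 with spike-in centring, 5 with quantile normalization and 5 among the 13 genes with 2 or more probes, where 9 were below 0 in CNT-2. Those lower counts follow from fewer genes. Quantile normalization narrows the CNT-2 column and widens the control, so values after it depend on that step too. For the other moves the cause was not tested.

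Single genes changed side as follows. Mrpl34 in CNT-2 minus control was at -0.0175 with median centring, -0.2825 with 75th percentile centring, -0.2125 with spike-in centring, -0.063 with quantile normalization and -0.367 with RefSeq probes alone. For others centred on the 75th percentile, CNT-2 minus control was -0.148 for Mrpl27, -0.1205 for Mrpl41 and -0.092 for Mrps18a, and CNT-2 minus CNT-1 was -0.146 for Mrpl43 and -0.1535 for Mrpl55. With spike-in centring these were -0.078, -0.0505, -0.022, -0.1055 and -0.113. With quantile normalization, CNT-1 minus control was 0.1562 for Mrpl2, 0.2421 for Mrps33 and 0.0673 for Mrps34, CNT-2 minus control was 0.0518 for Mrps33, and CNT-2 minus CNT-1 was -0.1178 for Mrpl55. Signal over background could not be used, because the deposited values hold no level.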
